A study of Mus musculus with 12 samples.

Results

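The core proteins of the spliceosome were examined as 1 group of genes in striatal RNA sequencing libraries of TAAR5-KO and WT mice. Members were chosen by symbol, as the Snrp genes other than Snrpn, the numbered Lsm, Sf3a, Sf3b and Prpf genes, and the U2af genes. A member also needed a CPM value (counts scaled to the total count of a library) of at least 0.5 in 3 or more of the 12 libraries. Of 50 symbols found, 47 passed this minimum, out of 13902 features that passed among 57132 in the table. The rule used the symbols and that minimum, and not the comparison of genotypes.

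The mice were C57Bl/6 littermates of 10 months, 6 in the TAAR5-KO group and 6 in the WT group, and both genotypes contributed males and females, although no source used here ties a sex to a library. TAAR5 is a trace amine-associated receptor, and the labels name no Cre, promoter or induction for the knockout, so an effect in the striatum cannot be told apart from one that began elsewhere or earlier in life. Total RNA came from the striatal part of a coronal slice after removal of the cortex, ribosomal RNA was depleted, and directional libraries were sequenced. Each library is taken as 1 animal, as the sample titles number them.

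Splicing removes introns from pre-mRNA, and small nuclear ribonucleoproteins (snRNPs), each a short nuclear RNA with its proteins, carry it out. The U1 snRNP recognises the start of an intron, U2AF and the U2 snRNP with its SF3 complexes recognise the branch point and the end, and the tri-snRNP of U4, U6 and U5 then joins and is rearranged into the active enzyme. A ring of Sm proteins sits on most of these RNAs, a ring of Lsm proteins sits on U6, and all cells that splice, neurons and glia alike, need them.

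The promoters of the 4 members with the smallest unadjusted p in the genotype comparison are shown so that the letters upstream of these genes can be read beside their values. They were read from the RefSeq promoter table for build GRCm38.p6, from 150 bases before the annotated start to 30 bases after it, 5′ to 3′ on the strand of the gene, and capitals mark matches to 7 short motifs that were searched on both strands. The Prpf39 window is chr12:65036184-65036363 on the plus strand, the Sf3b1 window chr1:55027449-55027628 on the minus strand, the Sf3b6 window chr12:4817458-4817637 on the plus strand and the Prpf31 window chr7:3629835-3630014 on the plus strand.
Prpf39: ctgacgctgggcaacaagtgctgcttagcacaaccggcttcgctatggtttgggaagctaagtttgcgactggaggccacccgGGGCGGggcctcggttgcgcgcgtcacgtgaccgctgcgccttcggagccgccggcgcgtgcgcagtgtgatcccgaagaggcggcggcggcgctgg
Sf3b1: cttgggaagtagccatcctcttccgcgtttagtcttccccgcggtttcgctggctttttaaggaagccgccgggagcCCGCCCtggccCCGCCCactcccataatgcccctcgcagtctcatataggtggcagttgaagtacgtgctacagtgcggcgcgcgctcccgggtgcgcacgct
Sf3b6: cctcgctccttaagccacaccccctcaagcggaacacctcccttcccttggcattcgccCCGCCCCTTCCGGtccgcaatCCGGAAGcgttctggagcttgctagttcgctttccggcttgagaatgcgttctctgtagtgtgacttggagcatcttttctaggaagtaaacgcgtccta
Prpf31: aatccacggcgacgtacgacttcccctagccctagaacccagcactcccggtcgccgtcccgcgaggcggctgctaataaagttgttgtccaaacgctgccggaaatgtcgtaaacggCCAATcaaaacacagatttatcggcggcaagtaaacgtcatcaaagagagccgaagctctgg
In Prpf39 the capitals are a GC box, GGGCGG, whose first letter lies 67 bases before the start. In Sf3b1 they are a pair of GC boxes on the other strand, at 73 and 62 bases before the start. In Sf3b6 a GC box on the other strand at 91 bases is followed directly by an ETS core, CCGGAAG, on the other strand at 85 bases, and a further ETS core lies at 70 bases. In Prpf31 they are a CCAAT box at 32 bases. None of the 4 windows held TATAAA, AAGATGGCG, GCATGCGC or CTCGCGAG.

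Of the 50 symbols, 39 had a promoter in that table, 47 promoters in all, each holding 250 bases before the start and 50 after it. Among them are Snrpf and U2af1l4, which did not pass the CPM minimum and are not among the features tested. The ETS core CCGGAAG stood in 34.0% of these 47 promoters, against 8.86% of all 32851 promoters and 15.9% of the 13253 promoters of features tested here. GGGCGG stood in 59.6% of them against 35.7% of all promoters and 61.5% of those of tested features, so its share was near that of expressed genes in general. CCAAT was found in 44.7% against 37.4% and 37.2%, and TATAAA in 4.26% against 13.6% and 7.17%. The rarer motifs were AAGATGGCG in 8.51% against 1.40% and 2.76%, GCATGCGC in 8.51% against 2.71% and 4.92%, and CTCGCGAG in 2.13% against 0.919% and 1.78%. These shares rest on few of the 47 promoters: 4 for AAGATGGCG (of 3 genes), 4 for GCATGCGC, 1 for CTCGCGAG and 2 for TATAAA. These matches describe letters in a window and were not tested against the expression values.

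The libraries held 11269915 to 34824450 counts, of which ribosomal RNA took 64.3% to 88.1%, so that 1819907 to 6399188 counts remained for other genes. The 47 members together received 2173 to 11388 counts in a library. Values below are CPM scaled by the trimmed mean of M-values (TMM), which sets libraries to a common level despite the ribosomal share. Levels compared between genes are RPKM, which is that CPM per kilobase of exon. The length merges all annotated exons of a gene, so differences in level between genes also depend on the annotation. Taar5 itself was counted 1 to 6 times in the libraries labelled TAAR5-KO and 0 to 2 times in those labelled WT, a difference against the labels (0.142 ± 0.062 against 0.022 ± 0.038 CPM, SD, n = 6 each; two-sided exact permutation p = 0.0065). Apart from library NK6 labelled TAAR5-KO, with 6 counts, no library held more than 3, the number taken here as the floor. Where these few counts come from was not tested. The labels are therefore written as labels throughout. All 11 lists of cell type markers were detected, with no tested marker at 0. The 6 striatal neuron markers summed to 191 to 242 CPM in the libraries labelled TAAR5-KO and 114 to 202 CPM in those labelled WT (adjusted p = 0.071 by exact permutation over 11 lists), and the 6 microglia markers to 25.1 to 36.2 CPM and 34.9 to 43.4 CPM (adjusted p = 0.048 by exact permutation), with 2 of the 6 called lower by edgeR. The oligodendrocyte markers summed to 572 to 701 CPM and 610 to 781 CPM, and those of oligodendrocyte precursors to 9.25 to 12.3 CPM and 10.97 to 14.1 CPM, with the edgeR estimate of each marker in both lists below 0 (adjusted p = 0.071 for both by exact permutation). The other 7 lists had adjusted p of 0.224 to 0.972 by the same exact permutation test. Among these, 0 of 6 astrocyte markers had an edgeR estimate above 0 and 1 was called lower, and 1 of 5 blood markers was called higher. Such a p compares the groups and does not show that libraries within a group were alike. The choroid plexus markers summed to 3.51 to 285 CPM in libraries labelled WT, and to as much as 467 CPM in 1 labelled TAAR5-KO. The cortical pyramidal neuron markers summed to 25.2 to 93.6 CPM (labelled TAAR5-KO) and 31.3 to 102 CPM (labelled WT). All 6 striatal neuron markers had estimates above 0, with 0 called. Over all features, edgeR called 0.957% higher and 0.691% lower. In tissue of mixed cells, fewer cells of a type and less RNA per cell cannot be told apart, and the part of cell composition in the values below was not tested.

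The comparison of libraries labelled TAAR5-KO with those labelled WT called 1 of the spliceosome core genes, and 1 other, Sf3b1, had a 95% interval that left out 0. The test was the edgeR likelihood ratio test over all 13902 features, with a call at a Benjamini-Hochberg adjusted p under 0.1. Prpf39, whose product is a U1-associated factor, was called higher in libraries labelled TAAR5-KO, and no member was called lower. That is 1 of 47 members, or 2.13%, against 1.65% of all features called (0.957% higher and 0.691% lower), so the members' share was near the background. At an unadjusted p under 0.05 there were 2 members, Prpf39 and Sf3b1, or 4.26%, against 11.9% of all features. With the edgeR quasi-likelihood test 0 members passed the adjusted threshold, against 0.453% of all features. By that test 3 members, Prpf39, Sf3b1 and Sf3b6, had an unadjusted p under 0.05, or 6.38%, against 12.0% of all features. No member had groups without overlap, against 1.01% of all features.

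Of the 47 estimates, 25 were above 0 and 22 below, with a median log2 fold change of 0.03 against -0.01 over all features. The typical distance from 0 was also alike, a median absolute log2 fold change of 0.14 for the members and 0.14 for all features. The 95% intervals of 45 members held 0. Counting the intervals by width, 7 lay within 0.25 log2 units of 0 on both sides, 30 within 0.5, 42 within 0.75 and 46 within 1. A p that missed the threshold does not show that a gene was equal in both groups.

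**Figure D1:**
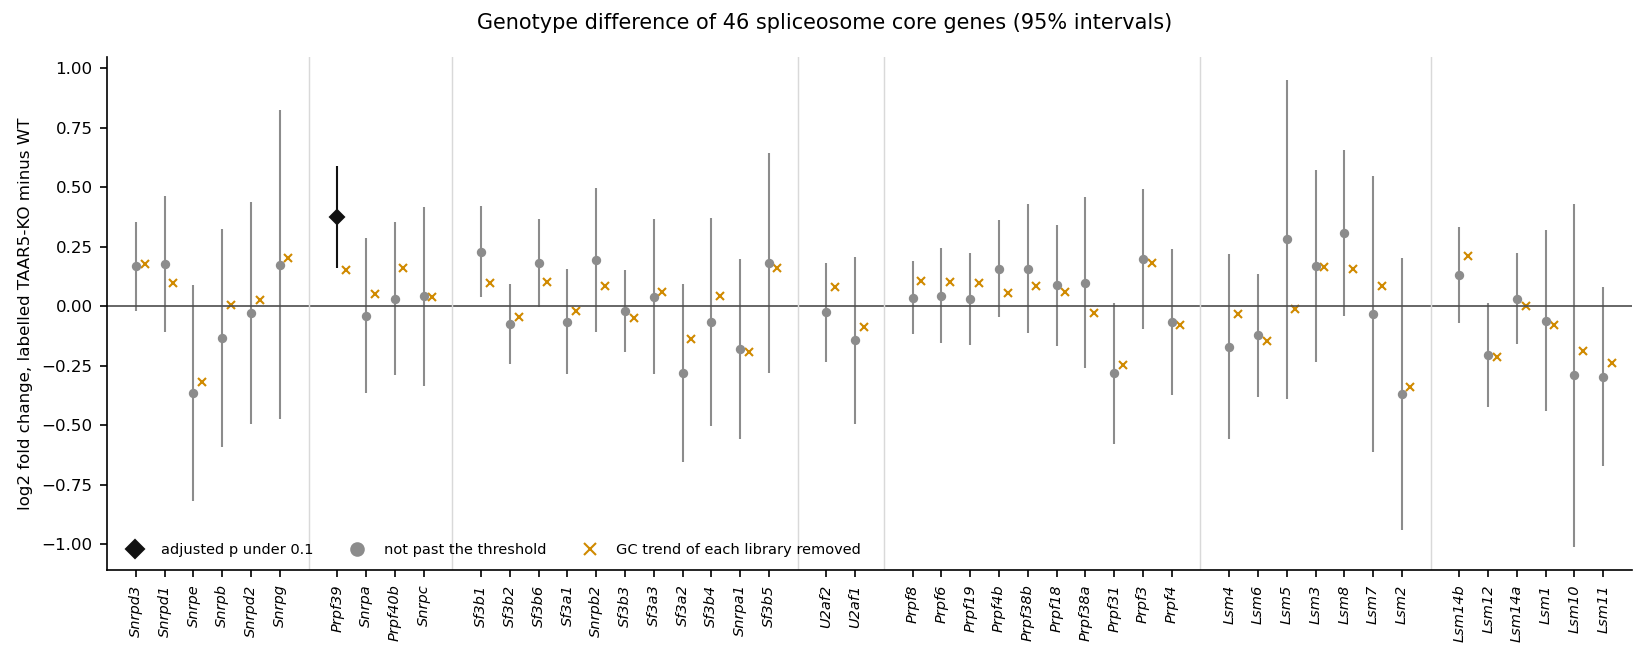
Log2 fold change of 46 of the 47 members, labelled TAAR5-KO minus WT, on the y axis, with genes on the x axis ordered by role; points are edgeR estimates with 95% intervals, the diamond marks the gene past the adjusted p threshold of 0.1, and crosses give the estimate after the GC trend of each library was removed. Prpf39 at 0.38 is the 1 diamond, and its cross lies at 0.15; of the other intervals drawn, all but that of Sf3b1 span 0.

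The Sm ring is made of SmB, D1, D2, D3, E, F and G. The 6 of their genes that were tested ranged from 0.190 ± 0.050 RPKM for Snrpg to 1.95 ± 0.17 RPKM for Snrpd3 (SD over 12 libraries). This is a 10.3-fold range of RNA among genes whose proteins enter the ring together, and protein was not measured. Its low end, Snrpg, rested on 2 to 16 counts a library. Snrpd3 had CPM of 6.33 to 7.63 with a median of 7.21 in libraries labelled TAAR5-KO, and 5.91 to 6.90 with a median of 6.27 in those labelled WT. All 6 libraries labelled TAAR5-KO lay above the WT median, and 4 above every library labelled WT. The edgeR estimate of the log2 fold change was 0.17 (SE 0.096, edgeR likelihood ratio adjusted p = 0.494), or 0.18 with the GC trend removed. Snrpe had CPM of 0.627 to 1.05 with a median of 0.824 against 0.548 to 1.69 with a median of 1.09. The WT range thus enclosed the other. For Snrpe the estimate was -0.36 (SE 0.23, edgeR adjusted p = 0.559), or -0.32 with the GC trend removed. Of the 6 Sm genes tested, 3 had estimates above 0 and 3 below, and none was called.

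Snrpf, which encodes SmF, did not reach the count minimum, with 9 counts in all 12 libraries together and 7 of these in 1 library labelled WT. Its protein is as necessary to the ring as the others, but 85.4% of its exonic bases are also covered by genes on the opposite strand, 4933408J17Rik and Ccdc38. How the authors' counting treated strand and overlap is not stated, so these counts cannot give its level. Nearest to the minimum by the third-highest CPM on the total count was Snrpg, at 0.654 and with 4 libraries at or above 0.5, where Snrpf had 0.062. By the number of libraries it was Lsm10, with the 3 that the rule asks for. Of the 100-base windows of the Snrpg transcripts, 17.5% also occur elsewhere in the GRCm39 genome, so reads of this small gene can be lost to copies or gained from them.

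The genes grouped here under the U1 snRNP held the 1 call. Prpf39 encodes a U1-associated splicing factor, the counterpart of yeast Prp39. It lies on chromosome 12 of GRCm39 at 65083107 to 65110160, on the plus strand (ENSMUSG00000035597.20). In the libraries labelled TAAR5-KO its CPM was 10.2, 9.22, 8.36, 7.88, 8.82 and 8.54, and in those labelled WT 6.49, 7.19, 8.65, 7.84, 5.96 and 5.91. All 6 of the first group lay above the median of the second and 3 lay above all of its libraries, while 5 of the 6 libraries labelled WT lay below every library labelled TAAR5-KO, so the groups overlapped through 1 library. The counts behind these values were 65 to 327 a library. The mean was 8.84 ± 0.80 CPM against 7.01 ± 1.10 CPM (SD, n = 6 each), and the edgeR estimate was a 1.30-fold difference, or a log2 fold change of 0.38 (SE 0.11, 95% interval 0.16 to 0.59, edgeR likelihood ratio adjusted p = 0.061).

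This call depended on the setting. The adjusted p was 0.161 with the quasi-likelihood test and 0.069 with DESeq2. When any 1 of 5 libraries was left out (NK1 or NK2 labelled TAAR5-KO, and NK7, NK11 or NK12 labelled WT) the adjusted p rose to between 0.154 and 0.245, and the estimate over all 12 omissions stayed between 0.32 and 0.44. With the GC trend of each library removed, the log2 fold change was 0.15 (SE 0.092, edgeR adjusted p = 0.671), and with the ribosomal RNA share as a covariate it was 0.30 (edgeR adjusted p = 0.236). Of its exonic bases, 5.01% overlap Fkbp3 on the opposite strand.

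Prpf40b, whose product belongs to the Prp40 family of U1-associated proteins, stood at 0.458 ± 0.095 RPKM. Its CPM was 1.54 to 2.69 with a median of 2.30 in libraries labelled TAAR5-KO and 1.42 to 3.01 with a median of 2.30 in those labelled WT, so the WT range enclosed the other. Its estimate was 0.03 (SE 0.16, edgeR adjusted p = 0.966), or 0.16 with the GC trend removed. Snrpa and Snrpc, which encode the A and C proteins of U1, had estimates of -0.04 (SE 0.17) and 0.04 (SE 0.19). With the GC trend removed Snrpa came to 0.05, so its direction turned on this setting.

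**Figure D2:**
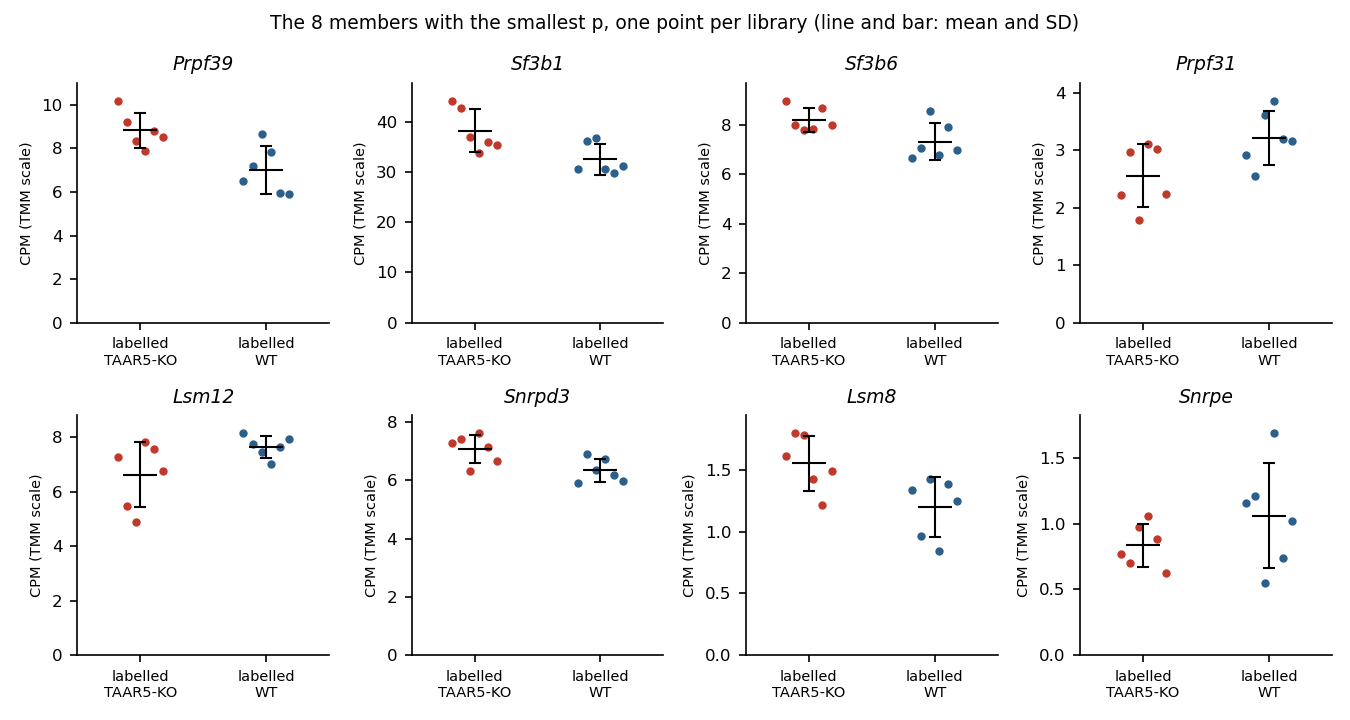
CPM on the TMM scale (y axis, from 0) for the 8 members with the smallest unadjusted p, with 1 point per library, 6 libraries labelled TAAR5-KO beside 6 labelled WT, and the mean with its SD as line and bar. The groups overlap in each of the 8 panels, in Prpf39 through the library labelled WT at 8.65 CPM.

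The U2 snRNP and SF3 group held 11 genes, from 0.241 RPKM for Sf3b5 to 3.10 RPKM for Sf3b1. Sf3b1 encodes the large SF3b subunit that clamps the branch point helix. It lies on chromosome 1 of GRCm39 at 55024328 to 55066640, on the minus strand. Its CPM was 44.1, 42.8, 37.0, 33.7, 35.8 and 35.3 in the libraries labelled TAAR5-KO and 30.6, 36.1, 36.7, 30.5, 29.9 and 31.1 in those labelled WT. All 6 of the first group lay above the WT median, and 3 above every library labelled WT. The edgeR estimate was 0.23 (SE 0.097, adjusted p = 0.287), and with the GC trend removed it was 0.10 (edgeR adjusted p = 0.821).

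Sf3b6, which encodes a further SF3b subunit, had CPM of 7.79 to 8.96 with a median of 7.97 in libraries labelled TAAR5-KO. In those labelled WT it had 6.63 to 8.54 with a median of 7.02. All 6 libraries labelled TAAR5-KO lay above the WT median. The estimate was 0.18 (SE 0.094, edgeR adjusted p = 0.435), or 0.10 with the GC trend removed. Snrpb2, a U2 protein and paralog of the U1 gene Snrpa, had an estimate of 0.20 (SE 0.15, edgeR adjusted p = 0.662), or 0.09 with the GC trend removed and 0.08 with the ribosomal covariate. Sf3b5 had an estimate of 0.18 (SE 0.24), which was 0.08 without NK4 and 0.32 without NK11. Of the 11 genes, 5 had estimates above 0 and 6 below, with a median of -0.02, and subunits of the same SF3b complex stood on both sides of 0.

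U2AF is a pair of proteins, the small subunit U2af1 reading the AG at the end of the intron and the large subunit U2af2 the pyrimidine tract before it. U2af2 stood at 1.72 ± 0.17 RPKM and U2af1 at 0.917 ± 0.184 RPKM. Their estimates were -0.02 (SE 0.11) and -0.14 (SE 0.18, edgeR adjusted p = 0.820). The interval for U2af2 was -0.23 to 0.18, among the narrower ones, and its estimate turned to 0.08 with the GC trend removed. That of U2af1 came to -0.09 with the GC trend removed and to -0.24 with the ribosomal covariate. Of the U2af1 windows 35.8% have a copy elsewhere in the genome, and of the U2af2 windows 16.1%, which makes both counts uncertain. The paralog U2af1l4 did not reach the minimum, with 3 counts in all, and 65.6% of its exonic bases are shared with Gm49396 on the same strand.

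The tri-snRNP and the proteins of later steps held 10 genes. Prpf8, the scaffold of the catalytic centre, was the highest of all 47 members at 4.66 ± 0.25 RPKM, and Prpf4 the lowest of its group at 0.299 ± 0.034 RPKM, a 15.6-fold range. Prpf8 was also among the least variable, with CPM of 33.8 to 38.3 and a median of 34.9 in libraries labelled TAAR5-KO against 30.9 to 36.9 and a median of 34.2 in those labelled WT. Its estimate was 0.04 (SE 0.079) with an interval of -0.12 to 0.19, and it was 0.11 with the GC trend removed. Prpf31, a U4 protein needed to hold the tri-snRNP together, had CPM of 1.79 to 3.10 with a median of 2.61 against 2.55 to 3.86 with a median of 3.18. No library labelled TAAR5-KO lay above the WT median, and 3 lay below every library labelled WT. Its estimate was -0.28 (SE 0.15, edgeR adjusted p = 0.452), or -0.25 with the GC trend removed. Of its exonic bases, 18.1% overlap Gm15927 on the opposite strand.

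The kinase gene Prpf4b, whose product phosphorylates tri-snRNP proteins, had CPM of 12.6 to 17.1 with a median of 12.9 against 10.6 to 14.8 with a median of 11.9. The highest value came from 1 library, and the estimate was 0.16 (SE 0.10, edgeR adjusted p = 0.577), or 0.06 with the GC trend removed. Prpf4, which shares its name but encodes a U4/U6 protein of another family, had an estimate of -0.06 (SE 0.16). The paralogs Prpf38a and Prpf38b, which act when the complex is activated, stood at 0.561 ± 0.126 and 1.23 ± 0.21 RPKM, with estimates of 0.10 (SE 0.18) and 0.16 (SE 0.14). The Prpf38a estimate turned to -0.03 with the GC trend removed and to -0.08 with the ribosomal covariate, and that of Prpf38b came to 0.08 and 0.07. Of the 10 genes, 8 had estimates above 0 and 2 below, with a median of 0.07 and no call.

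The 7 genes of the Lsm ring on U6, Lsm2 to Lsm8, ranged from 0.133 ± 0.041 RPKM for Lsm2 to 1.30 ± 0.27 RPKM for Lsm4. Lsm8 is the member that keeps the ring on U6 in the nucleus. Its CPM was 1.22 to 1.80 with a median of 1.55 in libraries labelled TAAR5-KO and 0.844 to 1.42 with a median of 1.29 in those labelled WT, so that 5 of 6 lay above every library labelled WT. The estimate was 0.31 (SE 0.18, edgeR adjusted p = 0.497), on 7 to 57 counts a library, and 0.16 with the GC trend removed. Lsm2, with 2 to 23 counts, had an estimate of -0.37 (SE 0.29, edgeR adjusted p = 0.659), which was -0.58 without NK5. Lsm4 had -0.17 (SE 0.20), which was -0.03 with the GC trend removed, -0.10 with the ribosomal covariate and -0.06 without NK12. Partners in the same ring thus had estimates of either sign, 3 above 0 and 4 below, with none called.

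The other Lsm genes serve outside U6. Lsm1 takes the place of Lsm8 in the cytoplasmic ring of mRNA decay, Lsm10 and Lsm11 belong to the U7 snRNP that processes histone mRNA, and Lsm14a and Lsm14b to cytoplasmic RNA granules. Lsm12 had CPM of 4.87 to 7.82 with a median of 7.01 against 6.99 to 8.15 with a median of 7.68. Of the libraries labelled TAAR5-KO, 3 lay below every library labelled WT. The estimate was -0.20 (SE 0.11, edgeR adjusted p = 0.464), or -0.21 with the GC trend removed. Lsm11 had an estimate of -0.30 (SE 0.19, edgeR adjusted p = 0.572), or -0.24 with the GC trend removed. The paralogs Lsm14a and Lsm14b, at 1.42 ± 0.14 and 3.01 ± 0.40 RPKM, had estimates of 0.03 (SE 0.097) and 0.13 (SE 0.10), which came to 0.00088 and 0.21 with the GC trend removed. Here 2 of 6 estimates were above 0 and 4 below.

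**Figure D3:**
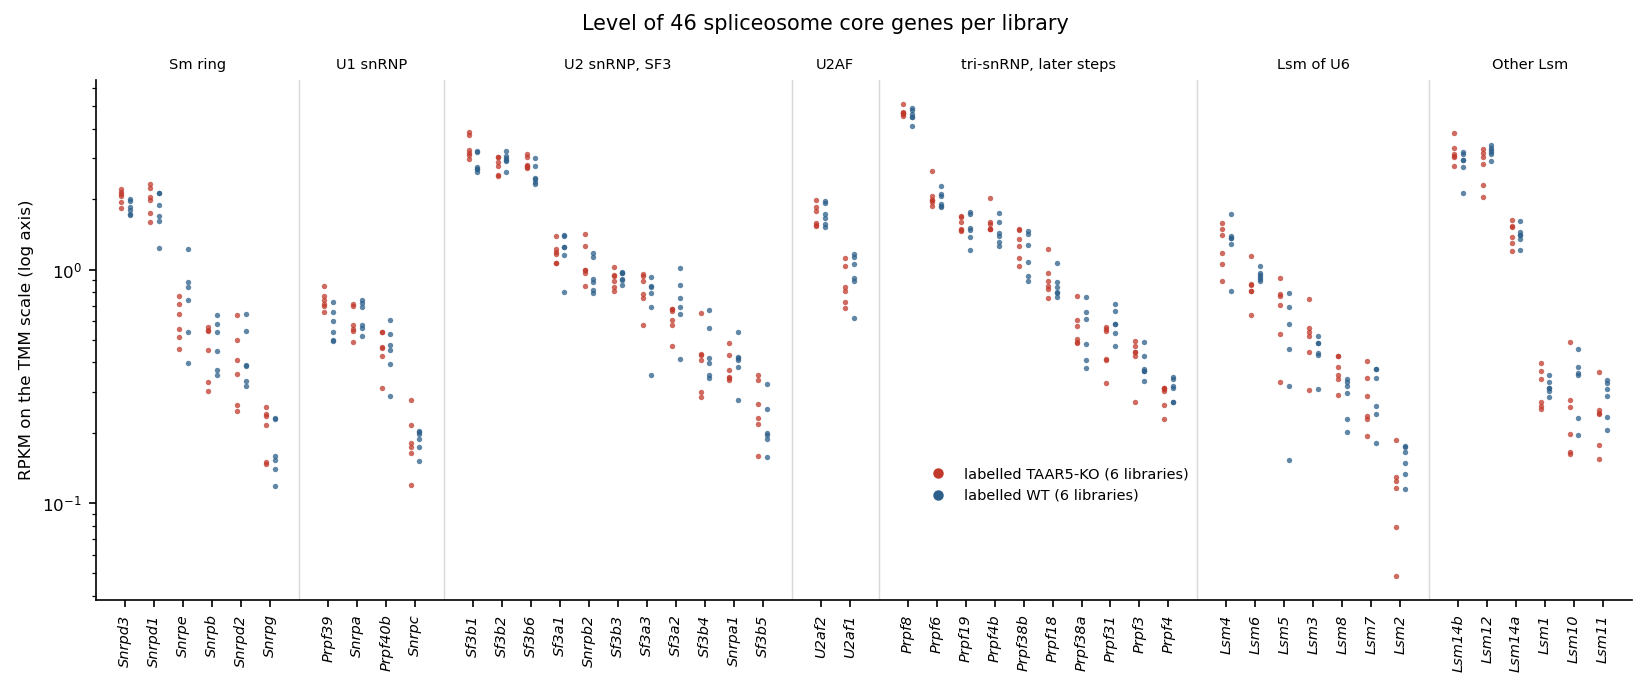
Level of 46 of the 47 members in each of the 12 libraries, as RPKM on the TMM scale on a log axis, with genes grouped by role and ordered by mean level, 6 libraries labelled TAAR5-KO and 6 labelled WT. Mean levels run from 0.133 RPKM for Lsm2 to 4.66 RPKM for Prpf8, and the points of both groups overlap for each gene drawn.

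Across all members the median level was 0.690 RPKM, against 0.559 RPKM over all features tested. The median coefficient of variation between libraries was 18.05% in the group labelled TAAR5-KO and 16.1% in that labelled WT, against 18.7% and 18.3% over all features. The median biological coefficient of variation, the part of the spread beyond counting error as edgeR estimates it, was 10.7% for the members and 12.5% for all features. The CPM of all members summed to 250 to 284 in a library. As coefficients of variation, Prpf8 had 4.44% and 6.14% in the 2 groups, and Snrpg, near the minimum, 23.3% and 27.6%.

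The members' estimates varied with the base composition of their exons. Of the 23 members of lowest GC content, 34.7% to 46.8%, 17 had estimates above 0 and 6 below, with a median of 0.16. Of the 23 of highest GC content, 47.8% to 61.6%, 7 were above 0 and 16 below, with a median of -0.06. Over all features the shares above 0 were 67.4% in the same lower range and 34.3% in the same upper range. Across genes, which are not independent replicates, Spearman's rho between GC content and log2 fold change was -0.64 for the 47 members and -0.40 for all features. Prpf39, at 36.0% GC, and Sf3b1, at 39.8%, belong to the members of lowest GC content.

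The same composition trend was measured in each library, as the slope of a feature's log2 deviation from its mean level on GC content. The slope was -0.219 to -0.001 log2 units per 10 points of GC in the libraries labelled TAAR5-KO and -0.066 to 0.205 in those labelled WT, with means of -0.068 and 0.068 (two-sided exact permutation p = 0.017, adjusted p = 0.104 over 6 measures of a library). Deviations were taken from the mean over all 12 libraries, so group means of opposite sign and like size follow from that centring. The slopes are therefore relative, and restate by library the trend of the fold changes. Genotype and this trend cannot be told apart by design. With the trend of each library removed, 14 of the 23 low-GC members and 13 of the 23 high-GC members had estimates above 0, rho over the 47 was -0.12, the median log2 fold change was 0.04, and 0 members and 86 features were called. The trend was fitted over the features of each library and taken out, so a weaker correlation with GC follows from the removal itself.

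**Figure D4:**
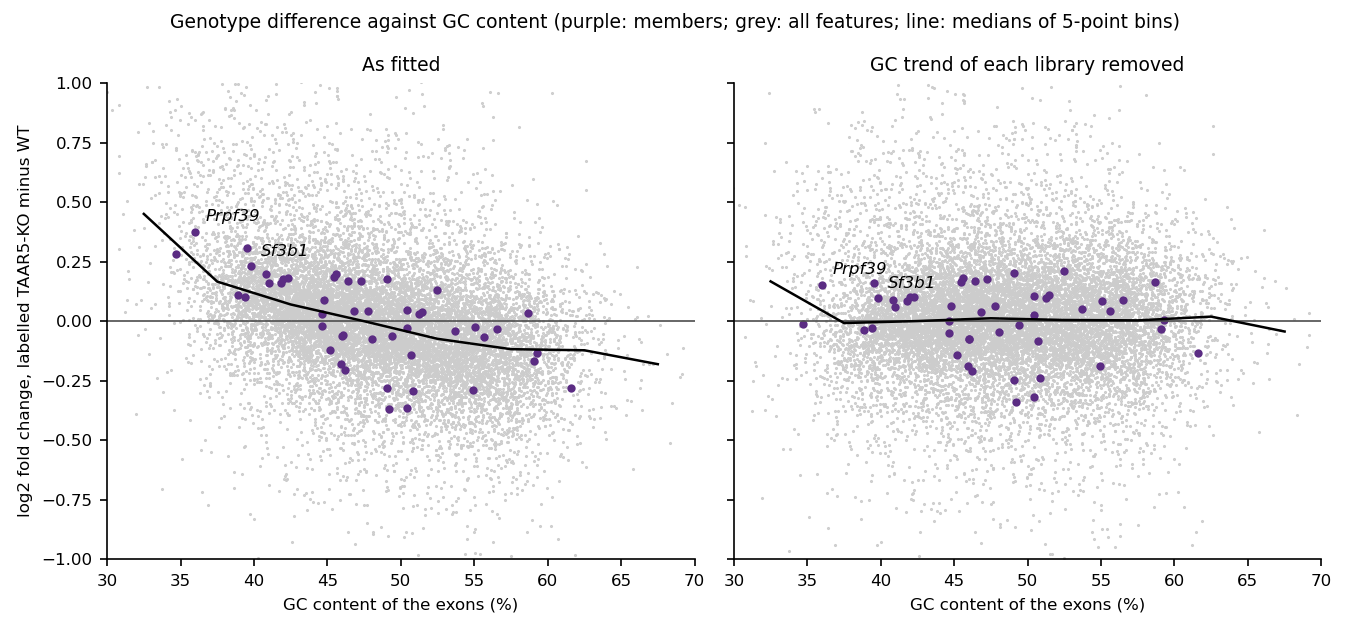
Log2 fold change, labelled TAAR5-KO minus WT (y axis), against the GC content of the exons in percent (x axis), for the 47 members in purple and other features in grey, with medians of 5-point bins as a line, before (left) and after (right) removal of the GC trend of each library. On the left the members fall with GC content (rho -0.64). On the right the trend was taken out, so a weaker rho, here -0.12, follows from the removal. In the left panel 114 features lie beyond the axes.

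The rest of the splicing machinery was read from 4 lists chosen by role, of 68 genes, 66 of them tested. No gene of these lists was called, by the likelihood ratio or the quasi-likelihood test, against 1.65% of all features by the first, and 6 (Luc7l3, Luc7l2, Snrnp25, Ddx46, Snrnp70 and Rnpc3, named after their values were seen) had an unadjusted p under 0.05, or 9.09%, against 11.9% of all features. Among the other snRNP subunits 17 of 22 had estimates above 0, with a median of 0.08, and among the minor spliceosome genes, which splice a rare class of introns, 6 of 9. The Prp19 complex and helicases had 11 of 20 above 0, and the assembly factors that load Sm rings onto RNA 8 of 15. Of the 6 named, Luc7l3 and Luc7l2 had the smallest p, with estimates of 0.42 and 0.29 (edgeR adjusted p = 0.178 and 0.194). With the GC trend removed these came to 0.32 and 0.14. Snrnp25 had an estimate below 0, at -0.71 (edgeR adjusted p = 0.362). Snrnp70 encodes the U1 70K protein. It had 10.4 ± 0.8 CPM in libraries labelled TAAR5-KO and 8.94 ± 1.49 CPM in those labelled WT. Its estimate was 0.23 (SE 0.11, edgeR adjusted p = 0.412), or 0.30 with the GC trend removed (edgeR adjusted p = 0.306).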

How the data were processed

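Striatal RNA of 12 mice was measured in 12 libraries. The authors deposited raw counts per gene, not normalized, with the exon length of each gene as another column. Per the paper's methods and the submitters' processing notes, reads were trimmed with cutadapt 4.1, aligned to GRCm39 with GENCODE annotation by STAR 2.7.11b and counted by featureCounts 2.0.6. Strand and multiple-mapping settings are not given in the sources used here. The labels give the molecule as polyA RNA, whereas the protocol describes ribosomal RNA depletion. Of the count columns, 12 that name no sample of this series were not used.

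Columns were placed in a group by the genotype in their names, and NK numbers only name a library. Features with at least 0.5 CPM in 3 libraries were fitted with edgeR 4.0.16 in R 4.3.3 (TMM, estimateDisp, glmFit, glmLRT). The study's methods name edgeR, CPM normalization, a likelihood ratio test, that CPM minimum and a call at adjusted p under 0.1. They do not say whether TMM was used. The minimum was applied here to CPM on total counts. An alternative applied it to CPM on TMM library sizes, which left 13053 features, the number the study gives. The fit here called 229 features, 133 higher and 96 lower, and that alternative called 234. The study reported fewer genes called, with more of them lower than higher in TAAR5-KO. The quasi-likelihood test and DESeq2 1.42.0 were alternatives, as were other scalings, filters, GC and length trends (loess, span 0.5) and a ribosomal covariate. Fits were tested on simulated data. RPKM is TMM-scaled CPM over the deposited length. GC content was read from the GRCm39 genome over the merged exons, and copies were sought as exact 100-base windows for 41 of the 50 symbols that had a suitable transcript. Intervals of 95% are estimate ± the normal quantile times the SE. A count of 3 was taken as the floor in a library, 0.068 to 0.362 CPM. By a chi-square on raw counts, replicates of a group differed beyond sampling noise in all 30 pairs. It used library totals with ribosomal RNA included, so it does not measure the spread of other genes between animals.

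Members and lists were chosen with earlier results of these data known. Members were named if they passed the threshold, were among the 10 with the smallest p, were highest or lowest in RPKM within their role, or belonged to a paralog pair fixed with the lists. The values of 1 member are not reported here. Protein sequences were not used here.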

Additional observations from a re-analysis of the deposited data

Results flagged for a closer look

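Of 62 sets of 6 values checked, 52 of them a named member in 1 group, 2 held a library that stood apart from the other 5 by Dixon's criterion, which flags about 1 group in 20 by chance. Prpf4b stood at 17.1 CPM in library NK1 labelled TAAR5-KO, with the other 5 at 12.6 to 13.4 CPM. Prpf8 stood at 38.3 CPM in library NK4 labelled TAAR5-KO, with the other 5 at 33.8 to 35.2 CPM. Neither gene was called with or without these libraries.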

How the results depend on the processing

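The count of members called higher was 1 and fell to 0 at an adjusted p under 0.05, with the quasi-likelihood test, with library size as the only scaling, with no filter beyond 1 count, with the GC trend removed and with the ribosomal covariate. It stayed at 1 with DESeq2, RLE size factors, filterByExpr, the length trend removed and, chosen after seeing the data, the CPM minimum on TMM library sizes (45 members tested). Leaving out 1 library in turn gave 0 to 1 members called higher, 0 called lower, and a median log2 fold change of 0.01 to 0.06. No member was called lower under any of these settings. Library size alone moved the median of all features by -0.49 log2 units, and under it the median coefficients of variation were 65.1% and 61.2% (labelled TAAR5-KO and WT).

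The sign turned in 18 of 595 comparisons over 26 named members, all of genes that were not called, and the cause was not tested. With the GC trend removed Prpf38a came to -0.0280, Snrpa to 0.0525 and U2af2 to 0.0831. With the ribosomal covariate Prpf38a came to -0.0752 and U2af2 to 0.0081. The ranges over single omissions were -0.00751 to 0.203 for Prpf38a, -0.0295 to 0.113 for Prpf40b, -0.116 to 0.0476 for Snrpa, -0.0601 to 0.124 for Snrpc and -0.0567 to 0.0164 for U2af2. Another 11 comparisons lost a call, all of Prpf39. DESeq2 gave no adjusted p for 24 of the 47 members. No paired analysis was possible because the columns carry no animal numbers.

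With the ribosomal covariate the estimates of Snrpg and Snrpc moved from 0.18 to 0.40 and from 0.04 to 0.12, neither called. Depth limits the lowest members, of which up to 4 in a library lay at or under 3 counts. The counting settings limit overlapping genes. The labels give no sex for a library, and sex was not entered in any fit.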
